A study of Mus musculus with 6 samples.

Results

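The mitochondrial respiratory chain and ATP synthase were examined in primary mouse hepatocytes, with every subunit gene taken as a member whose symbol and annotation met a fixed rule. Members were protein-coding genes of the mouse GENCODE annotation (build GRCm38) whose symbols begin with mt-Nd, mt-Co, mt-Cytb or mt-Atp, or follow the Nduf, Sdh, Uqcr, Cox4 to Cox8 and Atp5 subunit patterns. The rule found 97 gene identifiers among 55487 in the tables, of which 13 lie on the mitochondrial chromosome and 84 on nuclear chromosomes. Those 97 identifiers carry 96 symbols, because Atp5o is listed under a pair of identifiers.

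The study set 3 libraries of hepatocytes from Alb/MDA-9 mice against 3 libraries from WT littermates. The Alb/MDA-9 mice carry human MDA-9/SDCBP with a C-terminal HA tag as a heterozygous transgene. Its expression is driven in the liver by the mouse albumin core promoter joined to an upstream albumin enhancer. Both groups shared the B6CBAF1 background and regular chow, and their hepatocytes were isolated and cultured without any treatment. Ages and sexes are not given, and the labels do not say whether each library is a separate animal, so the p-values below measure the spread between these libraries, which may be technical. Strand-specific reads assigned to genes numbered 16403918 to 19046739 per library, and levels are given in CPM, reads relative to the size of the library after TMM scaling by edgeR.

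Oxidative phosphorylation is carried out by large assemblies in the inner mitochondrial membrane. Complex I oxidizes NADH, complex II oxidizes succinate, complex III passes electrons on to cytochrome c, complex IV reduces oxygen, and complex V, the ATP synthase, uses the resulting proton gradient. Complex II is built wholly from nuclear genes, whereas the others combine nuclear subunits with subunits made from mitochondrial DNA, so each depends on transcripts of both genomes. Hepatocytes are rich in mitochondria and use their ATP for gluconeogenesis, urea synthesis and secretion.

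Of the 13 mitochondrial mRNAs, 6 could not be read, and 5 of these share nearly all of their sequence with nuclear copies. The sequences below show such sharing in mt-Co2, which is among these 5. They also show it in mt-Nd4 and mt-Co1, which are shared only in part and could be read. The aligner counted a read only if it had a single place in the genome, and stretches of mitochondrial DNA also stand on nuclear chromosomes as unprocessed pseudogenes. Capitals mark bases inside 50-base windows that are also found, letter for letter, in an annotated copy on chromosome 1. The first line is the start of mt-Co2, the second subunit of cytochrome c oxidase, at chrM:7013-7092. The second is the place in mt-Nd4, a proton-pumping subunit of complex I, at chrM:11003-11082 where its match ends. The third is the place in mt-Co1, the catalytic subunit of complex IV, at chrM:6354-6433 where its match begins. All are on the + strand of GRCm38.
mt-Co2: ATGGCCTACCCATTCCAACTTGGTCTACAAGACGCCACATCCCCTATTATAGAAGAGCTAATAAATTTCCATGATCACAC
mt-Nd4: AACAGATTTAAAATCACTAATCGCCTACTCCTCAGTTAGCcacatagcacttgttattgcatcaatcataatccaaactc
mt-Co1: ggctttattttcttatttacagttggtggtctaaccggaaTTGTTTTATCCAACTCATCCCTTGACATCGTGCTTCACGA

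The shared stretch of mt-Co2 covered 681 of its 684 bases, whereas that of mt-Nd4 covered 876 of 1378 bases and that of mt-Co1 covered 479 of 1545 bases. The copies of these genes and of mt-Atp6, mt-Co3, mt-Nd3 and mt-Nd4l stand side by side at chr1:24611535-24616197 as 7 annotated pseudogenes. Those 7 copies together received 42 reads over all 6 libraries. Chromosome 2 holds a further pair, Gm13340, which shares 27.5% of the windows of mt-Co1, and Gm13341, which shares 35.3% of those of mt-Co2. Over all annotated transcripts, 51.1% of the windows of mt-Co1 were found elsewhere. Gm13340 had 421 reads over all 6 libraries and was not called (log2 fold change 0.15, adjusted p = 0.727 by edgeR). Gm13341 had 22, 23 and 14 reads in Alb/MDA-9, against 66, 43 and 33 in WT, and was called lower (log2 fold change -1.14, adjusted p = 0.0380 by edgeR). The share found elsewhere was 98.0% of the 50-base windows of mt-Nd3, 98.8% of mt-Nd4l, 99.9% of mt-Co3 and 99.5% of mt-Atp6. These 4 mRNAs and mt-Co2 had 0 reads in every library, and mt-Atp8, whose windows matched no other annotated transcript, had 2 reads in WT 3 and 0 in the rest. The search covered annotated transcripts only, so a copy of mt-Atp8 outside them could not be looked for. With 3 reads as the limit that a count of 0 allows, such a count corresponds to at most 0.151 to 0.180 CPM per library on the TMM scale. Mitochondrial mRNAs are among the most abundant messengers of any hepatocyte, so these counts give no level for the 6 genes. No value for complex V from mitochondrial DNA could therefore be given.

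**Figure D1:**
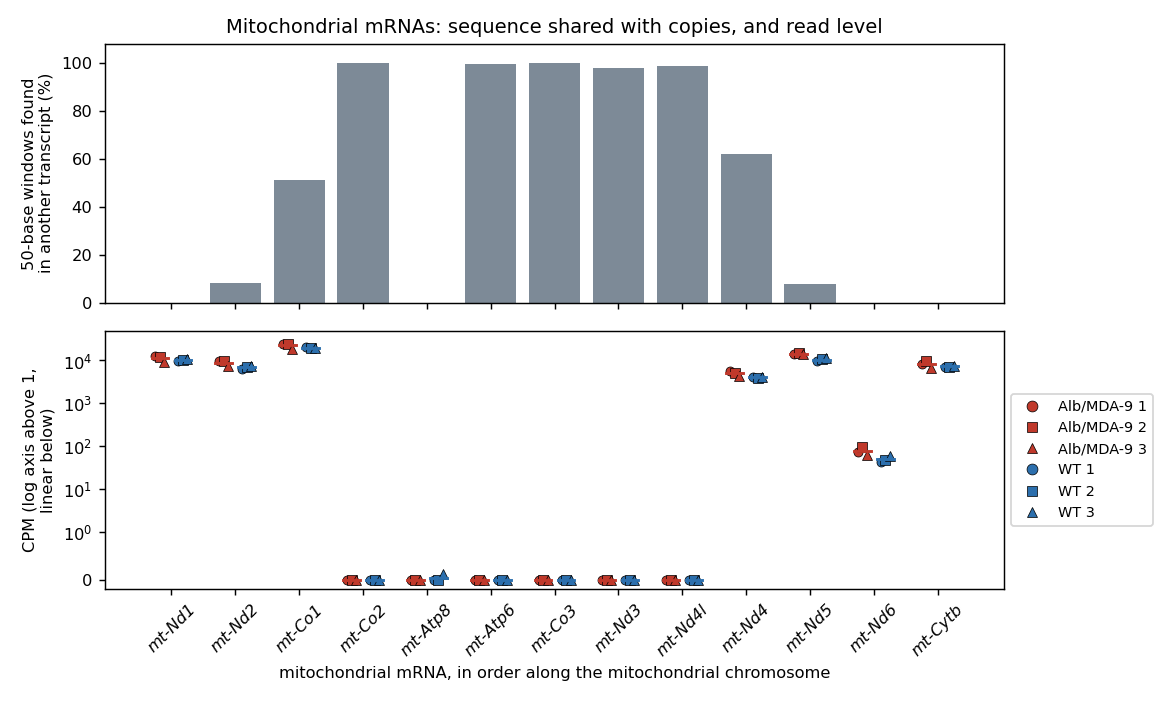
The upper panel plots, for the 13 mitochondrial mRNAs in chromosome order, the percent of 50-base windows found in another annotated transcript. The lower panel plots each library's CPM, Alb/MDA-9 in red on the left and WT in blue on the right, with bars at the group means, on an axis that is logarithmic above 1 and linear below. The 5 mRNAs with at least 98.0% of windows shared sit at 0 in all libraries, as does mt-Atp8 in all but WT 3.

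Hepatocyte identity was clear in both groups, but other liver cells and 1 library need to be kept in view. Beside the marker counts below, edgeR called 7.09% of all genes tested lower and 7.35% higher at an adjusted p under 0.05. The summed level of 10 hepatocyte markers was 70609 to 86848 CPM in Alb/MDA-9 and 70371 to 74155 CPM in WT, with 3 of the 10 lower by edgeR. Kupffer cell markers summed to 72.8 to 101 CPM in Alb/MDA-9 and 142 to 148 CPM in WT, with 8 of 10 lower. Endothelial markers summed to 165 to 181 CPM in Alb/MDA-9 and 221 to 239 CPM in WT, and stellate cell and fibroblast markers to 195 to 263 CPM in Alb/MDA-9 and 293 to 313 CPM in WT, with 5 of 10 lower in each list. Cholangiocyte markers summed to 294 to 416 CPM in Alb/MDA-9 and 97.6 to 105 CPM in WT, with most of the Alb/MDA-9 sum from Spp1. Of 7 cholangiocyte markers tested, 3 were higher and 1 lower by edgeR. Among lymphocyte markers, 4 of 8 were at 0 in every library. No defining marker of the Kupffer, endothelial or stellate lists was at 0, and fewer cells of a type and less RNA per cell cannot be told apart in such samples. Their part in the results below was not tested. On the second principal component, with 17.0% of the variance, Alb/MDA-9 3 lay away from the 5 remaining libraries. Mouse Sdcbp, which does not measure the human transgene, was at 174 ± 5.65 CPM in Alb/MDA-9 and 172 ± 6.93 CPM in WT (SD, n = 3 each).

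Across the chain, 84 of the 97 members had enough reads to be tested, and 5 were higher in Alb/MDA-9 while 0 were lower. All 5 belong to complex I: mt-Nd4, mt-Nd5 and mt-Nd6 from mitochondrial DNA and Ndufa1 and Ndufv3 from the nucleus. The call rule was an edgeR quasi-likelihood test with a Benjamini-Hochberg adjusted p under 0.05 over all 13296 genes tested, which called 14.4% of genes in either direction, 7.35% higher and 7.09% lower. The members' share of 5.95% was below that background. It was 2.60% for the 77 nuclear members, and above the background for the mitochondrial ones, at 42.9% or 3 of 7. Of those 3, mt-Nd4 lost its call in 10 of the 17 other settings tried. Reads of mt-Nd6 could not be told apart from stray reads of the wrong strand, as described below. Those 7 mRNAs varied in part together, as all were lowest in Alb/MDA-9 3 within that group. Complex I, which holds 40 of the 84 tested members and 5 of the 7 readable mitochondrial mRNAs, had 12.5% called. That lies below the 14.4% of genes called in either direction and above the 7.35% called higher. At an unadjusted p under 0.05 there were 13 of 84 members higher and 0 lower, against 14.0% of all genes higher and 13.9% lower. DESeq2 and limma voom likewise called 0 members lower. The libraries of the groups did not overlap for 16 of the 84 members, or 19.0%, against 33.6% of all genes tested, and for the mitochondrial mRNAs alone the share was 42.9%. In 15 of those 16, or 17.9% of members against 17.1% of all genes, Alb/MDA-9 was the higher group, the exception being Ndufb8, an accessory subunit of complex I, which was not called (log2 fold change -0.12). The count of members called was 12 without Alb/MDA-9 3, 2 without Alb/MDA-9 2, 3 without WT 1 and 3 without WT 2.

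**Figure D2:**
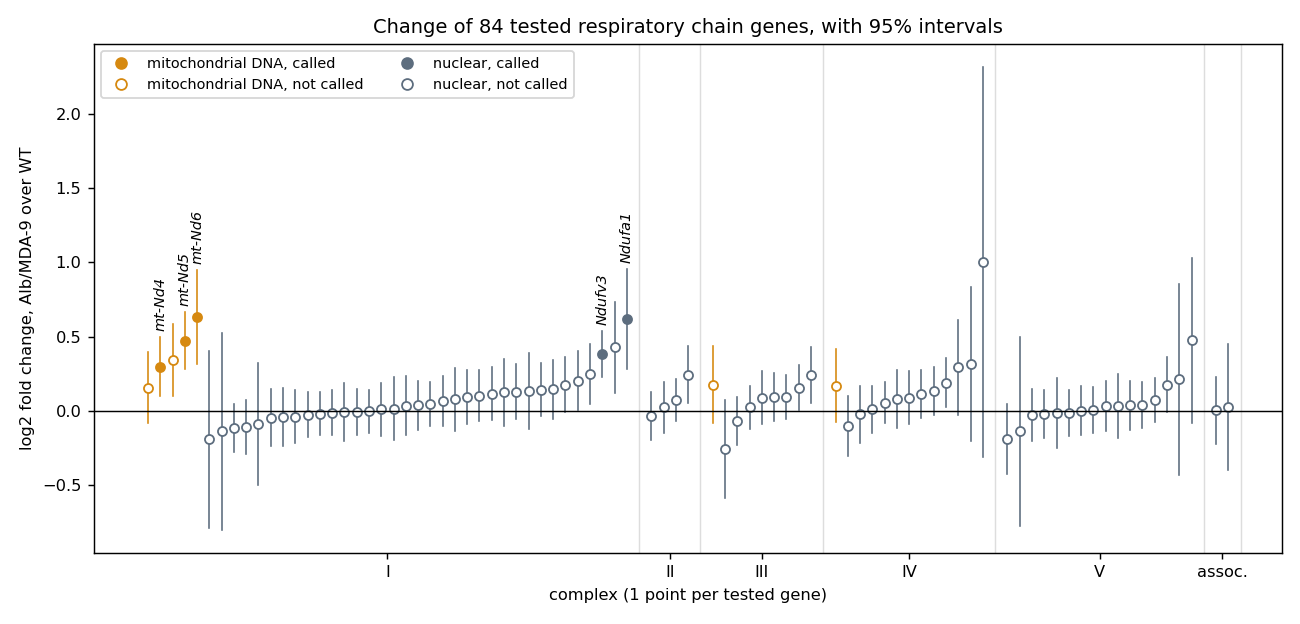
Each point is the edgeR log2 fold change of 1 tested gene, Alb/MDA-9 over WT, with its 95% interval, arranged by complex and colored by genome, with filled points for genes past the adjusted p threshold. The 5 filled points, all in complex I, which holds 40 of the 84 points, lie between 0.30 and 0.63. The median of the 77 nuclear genes is 0.04 with TMM scaling and -0.066 with library totals alone.

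The 7 readable mitochondrial mRNAs all had positive log2 fold changes, from 0.16 to 0.63 with a median of 0.30, beside a median of -0.00 over all genes tested. Of these 7, 3 passed the threshold. The clearest was mt-Nd5, which encodes the distal proton-pumping subunit of the complex I membrane arm. Its level was 14371, 15138 and 13939 CPM in Alb/MDA-9 1, 2 and 3, against 9488, 10579 and 11211 CPM in WT 1, 2 and 3. Every Alb/MDA-9 library lay above every WT library, and the spread within each group was small beside the gap. The log2 fold change was 0.47 (SE 0.09, adjusted p = 0.00372 by edgeR), and mt-Nd5 passed the threshold with each of the 6 libraries left out in turn, at log2 fold changes from 0.41 to 0.53.

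A second membrane-arm subunit, mt-Nd4, had 5553, 5116 and 4428 CPM in Alb/MDA-9, against 4212, 3979 and 4089 CPM in WT. The groups did not overlap, but Alb/MDA-9 3 was close to the highest WT library. Its log2 fold change of 0.30 (SE 0.09) was just inside the threshold with an edgeR adjusted p of 0.0464. That call was lost in 10 of the 17 other settings tried, and leaving out any library other than Alb/MDA-9 3 was enough to lose it, with edgeR adjusted p-values up to 0.188. Its neighbour in the membrane arm, mt-Nd2, had a slightly larger log2 fold change of 0.34 (SE 0.11) that did not pass (adjusted p = 0.0606 by edgeR), though it passed in 4 of the 17 other settings, among them DESeq2 (adjusted p = 0.00924) and voom (adjusted p = 0.00691). The level of mt-Nd2 was 9714, 9562 and 7384 CPM in Alb/MDA-9, against 6372, 7010 and 7633 CPM in WT, so that Alb/MDA-9 3 fell within the WT range.

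mt-Nd6 is the only protein-coding gene on the light strand of mitochondrial DNA and encodes a further membrane subunit of complex I. It had 73.9, 94.9 and 63.2 CPM in Alb/MDA-9, against 42.0, 48.0 and 59.6 CPM in WT. The groups did not overlap, though Alb/MDA-9 3 and WT 3 were close, and the log2 fold change was 0.63 (SE 0.15, adjusted p = 0.0118 by edgeR). The call did not hold without Alb/MDA-9 2, without WT 1 or without WT 2, where edgeR gave adjusted p-values of 0.0643, 0.0588 and 0.0533. These reads were also only 1.02% to 1.43% of all reads over mt-Nd6, the rest being on the opposite strand. A like share, 0.754% to 1.16%, of the reads over mt-Nd5 lay on the strand opposite to that gene, so mt-Nd6 messenger and stray reads of the wrong strand cannot be told apart here. In the unstranded counts the log2 fold change over mt-Nd6 was 0.50 (adjusted p = 0.00294 by edgeR). Nearly all of those counts are reads on the strand opposite to mt-Nd6, so this value does not measure its messenger.

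The remaining readable mRNAs were not called. mt-Nd1, which sits at the junction of the matrix and membrane arms of complex I, had a log2 fold change of 0.16 (SE 0.11, adjusted p = 0.383 by edgeR). mt-Cytb, the cytochrome b of complex III and its only subunit from mitochondrial DNA, had 0.18 (SE 0.12, adjusted p = 0.362 by edgeR). mt-Co1 had 24373, 24708 and 18106 CPM in Alb/MDA-9, against 20096, 20007 and 19586 CPM in WT. For mt-Co1, as for mt-Nd1 and mt-Cytb, Alb/MDA-9 1 and 2 lay above all WT libraries and Alb/MDA-9 3 below all of them. Its log2 fold change was 0.17 (SE 0.11, adjusted p = 0.359 by edgeR).

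**Figure D3:**
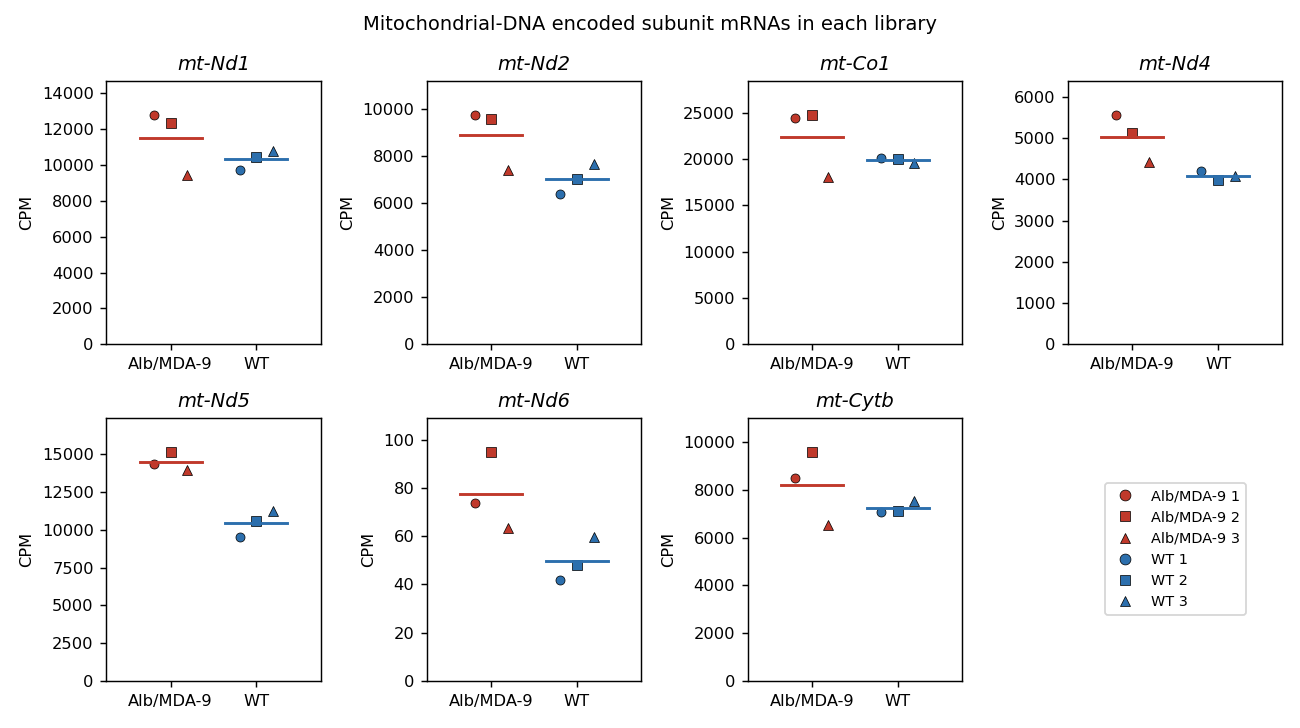
Each panel plots the CPM of 1 readable mitochondrial mRNA from 0, with Alb/MDA-9 libraries in red on the left, WT libraries in blue on the right, marker shapes for libraries 1 to 3 and bars at the group means. Alb/MDA-9 3, the red triangle, is the lowest Alb/MDA-9 library for 7 of the 7 mRNAs, and the groups are separate for mt-Nd4, mt-Nd5 and mt-Nd6.

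Alb/MDA-9 3 was the lowest Alb/MDA-9 library for all 7 readable mRNAs, and WT 1 was the lowest WT library for 5 of them. Without Alb/MDA-9 3 all 7 were called higher by edgeR, with a median log2 fold change of 0.38, whereas without Alb/MDA-9 2, WT 1 or WT 2 only mt-Nd5 was called among the 7. The median coefficient of variation over the 7 mRNAs was 15.6% in Alb/MDA-9 and 5.15% in WT. For the 77 tested nuclear members it was 6.61% in Alb/MDA-9 and 6.30% in WT. Taken as a sum, the 13 mitochondrial members received 7.17%, 7.28% and 5.94% of gene reads in Alb/MDA-9 and 5.96%, 6.12% and 6.28% in WT. The groups overlapped, because Alb/MDA-9 3 was below every WT library, and the difference of 0.676 percentage points had no test. It was 1.10 percentage points without Alb/MDA-9 3 and 0.435 without Alb/MDA-9 2, the highest and lowest with a library left out.

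**Figure D4:**
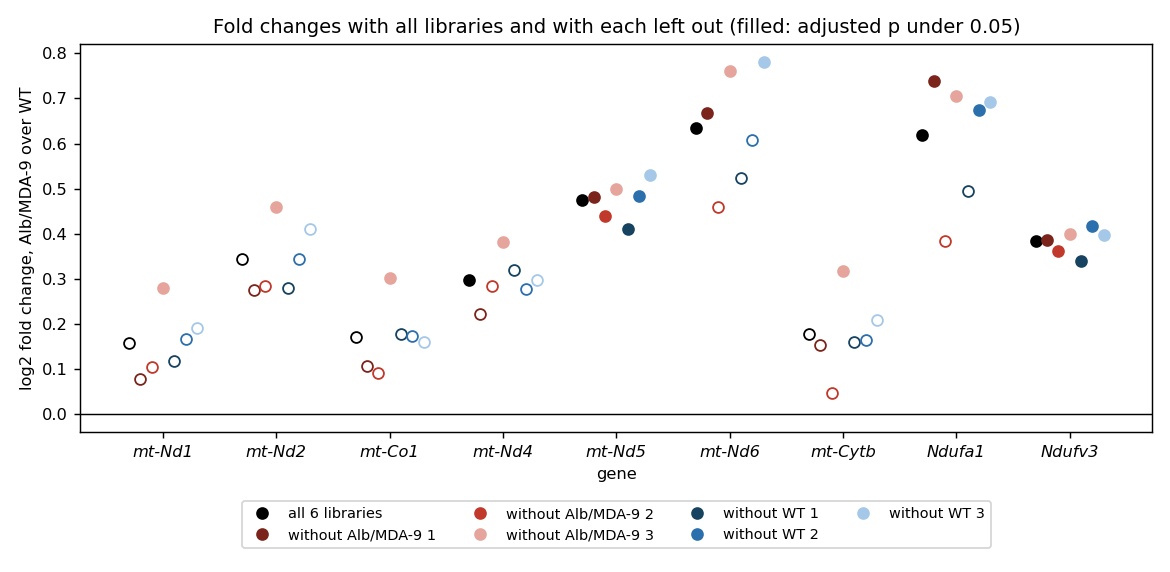
For the 7 readable mitochondrial mRNAs and for Ndufa1 and Ndufv3, points give the edgeR log2 fold change, Alb/MDA-9 over WT, with all 6 libraries in black and with each library left out in turn. Filled points have an adjusted p under 0.05. For mt-Nd5 and Ndufv3 every point is filled, and all 7 mitochondrial mRNAs are filled without Alb/MDA-9 3.

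The balance among the mitochondrial mRNAs also shifted toward mt-Nd5. Its reads per read of mt-Co1 were 0.590, 0.613 and 0.770 in Alb/MDA-9 and 0.472, 0.529 and 0.572 in WT. Its reads per read of mt-Cytb were 1.69, 1.58 and 2.14 in Alb/MDA-9 and 1.34, 1.49 and 1.49 in WT. In both ratios every Alb/MDA-9 library exceeded every WT library, and Alb/MDA-9 3, the lowest for total mitochondrial reads, had the highest ratio. Because these ratios were picked after the values were seen, they are given with no test. As a share of the reads on the 7 mRNAs, mt-Nd5 held 19.1%, 19.8% and 23.3% in Alb/MDA-9 and 16.6%, 17.9% and 18.4% in WT, while mt-Nd1 held 16.9%, 16.1% and 15.8% in Alb/MDA-9 and 17.1%, 17.7% and 17.7% in WT. The mitochondrial ribosomal RNAs, looked at for the same reason, did not share the direction: mt-Rnr1 had a log2 fold change of -0.15 (adjusted p = 0.557 by edgeR) and mt-Rnr2 one of -0.28 (adjusted p = 0.296 by edgeR). Their level was lowest in Alb/MDA-9 3 as well, where mt-Rnr2 had 456 CPM, against 850 and 624 CPM in Alb/MDA-9 1 and 2 and 814, 723 and 801 CPM in WT. Both genes together held 0.102% to 0.181% of gene reads per library. How library preparation acted on these RNAs was not tested, so their counts may not measure their level in the cells.

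Compared per length, the mitochondrial mRNAs stood far above the nuclear subunits. The median over the 7 readable mRNAs was 7940 CPM per kilobase of transcript in Alb/MDA-9 and 6327 in WT, and the median over the 77 tested nuclear members was 43.6 CPM per kilobase in Alb/MDA-9 and 42.3 in WT. Within the mitochondrial set mt-Co1 was highest, at 14496 CPM per kilobase in Alb/MDA-9 and 12878 in WT, and mt-Nd6 lowest, at 149 in Alb/MDA-9 and 96.1 in WT. Where windows are shared with copies, as in mt-Co1 and mt-Nd4, these levels count only the part of each mRNA with a single place in the genome. Mitochondrial members received 8.55, 8.59 and 6.78 reads for each read on a nuclear member in Alb/MDA-9 and 6.73, 6.94 and 7.30 in WT, and the groups overlapped.

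The nuclear subunits were close to level between the genotypes. Of 77 tested, 2 rose, 0 fell and 75 did not pass, and their median log2 fold change was 0.04. With library totals alone this median was -0.066 and those of complexes I to V lay between -0.085 and -0.0030, beside -0.11 for all genes tested, so the nuclear medians below are small enough to change sign with the scaling. For 65 of the 77 the 95% interval of the log2 fold change lay within 0.5 of 0, a change of less than 1.41-fold either way. Summed over all nuclear members, the share of gene reads was 0.839%, 0.847% and 0.876% in Alb/MDA-9 and 0.886%, 0.882% and 0.860% in WT, with overlapping groups.

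Complex I, with 35 of the 77 tested nuclear members, held both nuclear genes that rose. They were 5.71% of its nuclear members, against 7.35% of all genes tested that were called higher. Ndufv3 encodes an accessory subunit beside the flavoprotein that takes electrons from NADH. It had 94.0, 96.6 and 91.8 CPM in Alb/MDA-9, against 67.6, 75.4 and 73.5 CPM in WT. The libraries within each group were close to each other and the groups were well apart. Its log2 fold change was 0.38 (SE 0.07, adjusted p = 0.00348 by edgeR), and it passed with each library left out, at 0.34 to 0.42.

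Ndufa1 is an X-linked gene for a small membrane subunit needed for complex I assembly. Per kilobase of joined exons it had the highest nuclear level in Alb/MDA-9, at 340.0 CPM against 222 in WT, a ranking that depends on the annotated lengths. It had 118, 185 and 125 CPM in Alb/MDA-9, against 76.4, 99.96 and 102 CPM in WT. The groups did not overlap, but Alb/MDA-9 2 was far above the other libraries of its group. The log2 fold change was 0.62 (SE 0.15, adjusted p = 0.0187 by edgeR). It was lost without Alb/MDA-9 2 (log2 fold change 0.38, edgeR adjusted p = 0.0771), without WT 1 (0.49, edgeR adjusted p = 0.0853) and with DESeq2 (adjusted p = 0.0833). Neither gene shared any 50-base window with an annotated transcript of another gene.

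**Figure D5:**
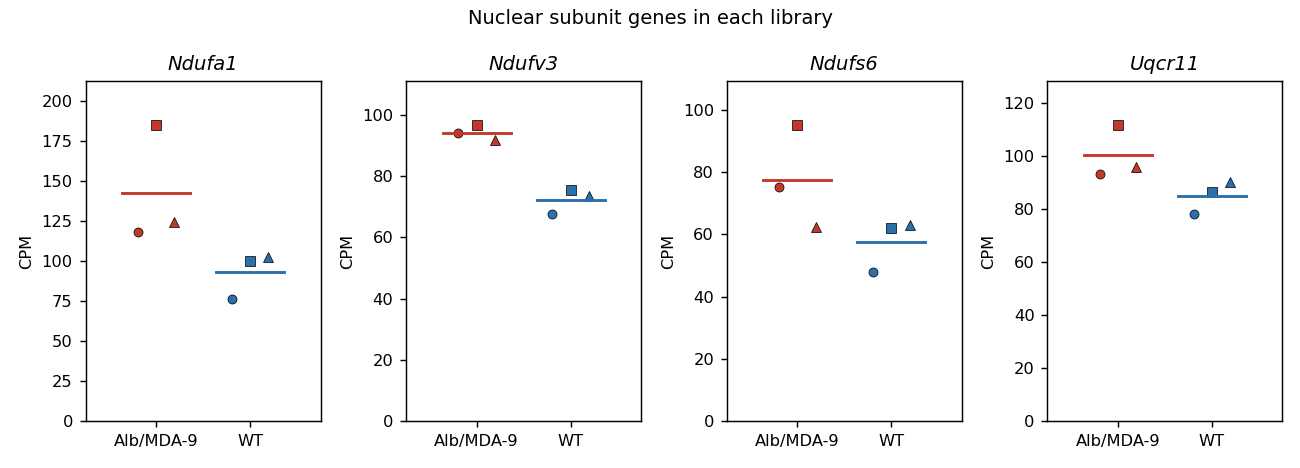
Panels plot the CPM of 4 nuclear subunit genes from 0, with Alb/MDA-9 libraries in red on the left and WT libraries in blue on the right. Circles, squares and triangles are libraries 1, 2 and 3, and bars are group means. Ndufv3, Ndufa1 and Uqcr11 show no overlap between groups, and Ndufs6 overlaps through Alb/MDA-9 3.

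The promoters of these 2 genes were read because both moved upward. Each window runs from 250 bases before to 50 bases after the RefSeq start (GRCm38.p6), that of Ndufv3 at chr17:31519865-31520164 on the + strand and that of Ndufa1 at chrX:37191189-37191488 on the - strand. Capitals would mark a match, on either strand, to the letters GCGCATGC for NRF1, CCGGAAGT for GABPA or AAGATGGC for YY1, factors known to act on respiratory chain genes.
Ndufv3: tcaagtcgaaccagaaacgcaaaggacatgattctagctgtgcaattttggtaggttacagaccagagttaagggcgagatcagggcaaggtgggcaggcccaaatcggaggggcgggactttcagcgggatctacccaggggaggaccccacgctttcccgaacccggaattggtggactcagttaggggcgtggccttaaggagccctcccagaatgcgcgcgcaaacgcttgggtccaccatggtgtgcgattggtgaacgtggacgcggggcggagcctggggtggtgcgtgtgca
Ndufa1: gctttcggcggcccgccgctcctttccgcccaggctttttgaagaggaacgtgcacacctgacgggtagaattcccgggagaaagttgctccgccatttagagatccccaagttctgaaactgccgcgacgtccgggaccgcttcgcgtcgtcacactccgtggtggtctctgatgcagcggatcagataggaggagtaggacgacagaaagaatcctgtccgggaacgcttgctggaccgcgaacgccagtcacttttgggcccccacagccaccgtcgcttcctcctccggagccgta

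Neither window holds any of the 3 motifs, which says only that these letters are not there. RefSeq promoter windows were matched for 66 of the 83 nuclear member symbols, 71 windows in all. The NRF1 letters stood in 10 of these 71 windows (14.1%), against 2.71% of all 32851 windows in the table. The GABPA letters stood in 7.04% of member windows and 3.89% of all windows, and the YY1 letters in 12.7% of member windows and 2.75% of all windows. A window counted once however many matches it held, including overlapping ones, and a match is a description of sequence only. Cox6a1, Uqcrc1, Atp5k and Ndufa11 were among the genes with the NRF1 letters.

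The rest of nuclear complex I, 33 of 35 tested genes, did not pass, and the median of the 35 was 0.04. The 7 nuclear core subunits, which carry the electron path of the matrix arm, had a median of -0.00. Among them Ndufs1, which holds iron-sulfur clusters, had a log2 fold change of -0.01 and Ndufv2 one of -0.11, neither of them called. Of the 28 accessory subunits, 2 rose and 0 fell, or 7.14% called, against 7.35% of all genes called higher. Ndufs6, a zinc-binding accessory subunit of the matrix arm, came next to the threshold. It had 75.1, 95.1 and 62.5 CPM in Alb/MDA-9, against 47.9, 62.1 and 63.1 CPM in WT, so that Alb/MDA-9 3 lay within the WT range. Its log2 fold change was 0.43 (SE 0.14, adjusted p = 0.0609 by edgeR), and edgeR called it only without Alb/MDA-9 3 among the 6 sets that leave out a library. It passed in 5 of the 17 other settings in all, among them DESeq2 (adjusted p = 0.0199), voom (adjusted p = 0.0122) and the replicate block (adjusted p = 0.0406 by edgeR).

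Complex II, succinate dehydrogenase, had 4 genes tested and 0 called, with a median log2 fold change of 0.05. The catalytic flavoprotein gene Sdha had 348, 366 and 357 CPM in Alb/MDA-9, against 330, 343 and 346 CPM in WT. The groups did not overlap, yet the difference was 0.07 (SE 0.07, adjusted p = 0.513 by edgeR). The iron-sulfur subunit gene Sdhb had a log2 fold change of 0.02, and Sdhd, a membrane anchor with the highest level per length in the complex, had -0.03. The other anchor gene, Sdhc, had a log2 fold change of 0.25 that did not pass (SE 0.09, adjusted p = 0.0840 by edgeR). Its groups narrowly did not overlap, at 92.2 CPM or more in Alb/MDA-9 and 91.6 CPM or less in WT. Sdhc passed with voom (adjusted p = 0.00877) and without WT 1 (adjusted p = 0.0173 by edgeR).

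Complex III had 8 nuclear genes tested and 0 called, with a median log2 fold change of 0.09. Uqcr11 and Uqcr10 encode small subunits and had the highest nuclear levels per length in the complex. Uqcr11 had 93.4, 112 and 96.1 CPM in Alb/MDA-9, against 78.3, 86.3 and 90.4 CPM in WT. Its groups did not overlap, and its log2 fold change was 0.24 (SE 0.09, adjusted p = 0.0861 by edgeR). Uqcr11 passed with voom (adjusted p = 0.0300) and without Alb/MDA-9 3 (adjusted p = 0.0489 by edgeR). Uqcr10 had a log2 fold change of 0.09 (adjusted p = 0.414 by edgeR), and the Rieske protein gene Uqcrfs1 had -0.07 (adjusted p = 0.614 by edgeR).

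Complex IV had 12 of its 18 nuclear genes tested and 0 called, with a median log2 fold change of 0.10. Cox6a1 and Cox8a, the liver forms of nuclear subunits that also have heart and muscle forms, had the highest nuclear levels per length in the complex as a mean over both groups, while in WT Cox6b1 (275 CPM per kilobase) was just above Cox8a (273 CPM per kilobase). Cox6a1 had 212, 238 and 212 CPM in Alb/MDA-9, against 186, 207 and 187 CPM in WT. The groups did not overlap, and the log2 fold change was 0.19 (SE 0.08, adjusted p = 0.125 by edgeR). Cox8a had 0.13 (SE 0.08, adjusted p = 0.270 by edgeR). The 6 genes not tested were Cox4i2, Cox6a2, Cox6b2, Cox7b2, Cox8b and Cox8c, forms known from lung, striated muscle or testis. The muscle form Cox7a1 was tested at the edge of detection, with 0.662, 1.63 and 0.421 CPM in Alb/MDA-9 and 0.151, 0.563 and 0.650 CPM in WT. Its log2 fold change of 1.003 (SE 0.60, adjusted p = 0.307 by edgeR) rests on very few reads.

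Complex V had 16 of 17 nuclear genes tested and 0 called, with a median log2 fold change of 0.02. Atp5b, the catalytic beta subunit, had 1060, 1075 and 1160 CPM in Alb/MDA-9, against 1069, 1085 and 1047 CPM in WT. The groups overlapped, although Alb/MDA-9 3 was above every WT library, and the log2 fold change was 0.04 (SE 0.07, adjusted p = 0.746 by edgeR). The alpha subunit gene Atp5a1 had 0.07 (adjusted p = 0.518 by edgeR) and Atp5d, the delta subunit of the central stalk, had 0.00 (adjusted p = 0.992 by edgeR). The c-ring that rotates with the proton flow is encoded by Atp5g1, Atp5g2 and Atp5g3. Atp5g2 had 3.42, 2.62 and 2.53 CPM in Alb/MDA-9, against 2.22, 2.10 and 1.83 CPM in WT. Its groups did not overlap, and its log2 fold change was 0.48 (SE 0.26, adjusted p = 0.247 by edgeR). The second identifier of Atp5o, ENSMUSG00000116933, was at 0 in every library, and the other, ENSMUSG00000022956, had 73.1 CPM in Alb/MDA-9 and 71.3 CPM in WT.

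Several nuclear members were counted at levels far below their partners in the same complex. Of the 77 tested, 10 stayed under 20 CPM in both groups, and 6 of these 10 shared at least 20% of their windows with an annotated copy, against 5 of the other 67. They were Ndufb4, Ndufs5, Uqcrb, Cox7c, Atp5g2 and Atp5l, whose annotated copies include processed pseudogenes. Atp5l, a subunit of the membrane part of ATP synthase, shared 68.5% of its windows and stood at 3.20 CPM in Alb/MDA-9 and 3.54 CPM in WT. Uqcrb, a subunit of complex III, shared 43.2% and stood at 9.81 CPM in Alb/MDA-9 and 11.7 CPM in WT. Levels of such genes count only reads with a single place and so understate the transcript by an unknown amount.

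Genes that serve the chain without belonging to it were read from lists drawn up for the purpose. Over all genes tested, 7.35% were called higher and 7.09% lower, which is the background for the counts of every list below. Of 52 assembly factors tested, 3 rose and 3 fell, with a median log2 fold change of 0.04. The complex I factor Ndufaf2 rose by 0.53 (adjusted p = 0.00997 by edgeR) and Tmem70, a factor of ATP synthase and complex I, rose by 0.26. Uqcc3, a complex III factor, rose by 0.41. Cox18, which inserts a complex IV subunit into the membrane, fell by 0.67 (adjusted p = 0.00421 by edgeR), the complex I factor Ndufaf4 fell by 0.33, and the complex II factor Sdhaf4 fell by 0.74.

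Genes for the upkeep and transcription of mitochondrial DNA (17 tested), for mitochondrial RNA processing (18 tested) and for the regulators of mitochondrial biogenesis (14 tested) had 0 called in either direction. Their medians were -0.05, -0.04 and -0.02. Of all genes tested, 14.4% were called in either direction. Tfam, the factor that packs and transcribes mitochondrial DNA, had a log2 fold change of -0.12 (adjusted p = 0.449 by edgeR). The coactivator Ppargc1a had 0.18 (SE 0.25, adjusted p = 0.690 by edgeR) at 3.12 CPM in Alb/MDA-9 and 2.74 CPM in WT, and Nrf1 had -0.17 (adjusted p = 0.206 by edgeR). Of 76 mitochondrial ribosomal protein genes, Mrpl33 rose by 0.26 and Mrpl10 fell by 0.43, with the rest not called.

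Of 20 genes for electron carriers and coenzyme Q synthesis, 2 rose and 2 fell, against 14.4% of all genes called in either direction. Coq8a, an atypical kinase of coenzyme Q synthesis, had 5.08, 4.42 and 3.97 CPM in Alb/MDA-9, against 9.89, 11.1 and 8.87 CPM in WT. The groups were far apart, and the log2 fold change of -1.15 (SE 0.17, adjusted p = 0.000686 by edgeR) exceeded in size that of any tested member. The methyltransferase gene Coq5 fell by 0.49, while Coq2, which attaches the side chain, rose by 0.38 and Etfdh, which feeds electrons from fatty acid oxidation into coenzyme Q, rose by 0.24. Cytochrome c1, Cyc1, which the symbol rule leaves out, had a log2 fold change of -0.05 (adjusted p = 0.746 by edgeR), and cytochrome c, Cycs, had -0.56 (SE 0.42, adjusted p = 0.421 by edgeR) at 1.96 CPM in Alb/MDA-9 and 2.90 CPM in WT. Shared windows were searched for members only, so whether copies make the level of Cycs too low was not tested.

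Of 18 genes of the citric acid cycle and 6 subunit or inhibitor genes outside the rule, 0 were called, against 14.4% of all genes. Among 13 carriers, Slc25a4, an exchanger of ADP for ATP, fell by 0.65 (adjusted p = 0.00235 by edgeR), and Nnt, the transhydrogenase, was at 0.619 CPM in Alb/MDA-9 and 0.670 CPM in WT. Among 23 genes of protein import and cristae, the inner membrane scaffold gene Phb rose by 0.52, the cristae gene Apool rose by 0.38 and the protease gene Oma1 fell by 0.43.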

How the data were processed

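Members and lists were chosen with earlier results of these data known. The deposited tables hold read counts per gene in unstranded and 2 stranded columns, made by the authors with STAR 2.7.9a on mm10 or GRCm38 after Trim Galore 0.6.6 and FastQC 0.11.2, per the submitters' processing notes. The fourth column was used, which held 96.9% to 97.2% of stranded gene reads. The first 4 lines, which name no gene, stayed out of library sizes. Unmapped reads equalled 9.22% to 10.4% and reads with several places 18.7% to 20.2% of all reads. Of 55487 identifiers, 55227 were in GENCODE M21, used for names and positions.

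Counts were filtered with filterByExpr at a minimum count of 10, scaled by TMM and tested in edgeR 4.0.16 (R 4.3.3), quasi-likelihood test, Alb/MDA-9 over WT, 13296 genes, Benjamini-Hochberg adjusted p under 0.05. Alternatives were other scalings, filters, columns, a fold threshold, a replicate block, DESeq2 1.42.0, limma 3.58.1 voom and leaving out each library. Windows of 50 bases of each member's transcripts were searched for exactly in all other annotated transcripts. Ndufa4 was counted in complex IV, and Atp5s and Cox7a2l in no complex. Levels per length divide by all annotated exons of a gene joined. Genes named are the 13 mitochondrial members, every member past the threshold, the 3 of highest level per length in each complex, the 3 largest changes that did not pass, members not tested, up to 4 called genes per list by smallest p, and 6 set genes, beside others chosen after their values were seen. Reads are not molecules, so limits from a count of 0 cover counting error only. The edgeR step was tested on simulated data.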

Additional observations from a re-analysis of the deposited data

Results flagged for a closer look

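Reads on the strand opposite mt-Nd6 averaged 6072 CPM in Alb/MDA-9 and 4376 CPM in WT, far above the limit that a count of 0 allows. No stranded comparison above uses these reads, but they made up nearly all of the unstranded reads over mt-Nd6. They were 5799, 6559 and 5857 CPM in Alb/MDA-9 and 4091, 4357 and 4681 CPM in WT, and the groups did not overlap. For each mt-Nd5 read there were 0.404, 0.433 and 0.420 such reads in Alb/MDA-9 and 0.431, 0.412 and 0.418 in WT. The annotations of mt-Nd5 and mt-Nd6 overlap by 14 bases on opposite strands.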

How the results depend on the processing

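No called member changed direction under any of the 17 alternatives, while medians of the nuclear members changed sign as given below. The 5 members called higher became 8 with no low-count filter, 10 with voom, 0 against a fold of 1.5, and 2 to 12 with a library left out. The 3 mitochondrial calls became 0 against a fold of 1.5 and 1 to 7 with a library left out. The 2 nuclear calls became 4 with no filter, 6 with voom, 0 against a fold of 1.5, and 1 to 5 with a library left out. Members called lower stayed at 0 with every library left out.

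Library totals alone moved the median log2 fold change of all genes to -0.11 and of nuclear members to -0.066, with -0.067, -0.056, -0.013, -0.0030 and -0.085 for complexes I to V. Relative to all genes the nuclear median under that scaling was 0.04. Upper-quartile factors gave -0.0015 for nuclear members, -0.0028 for complex I, 0.051 for complex III and -0.021 for complex V, which was -0.0070 with a minimum count of 50. With a library left out the nuclear median was 0.034 to 0.065 and those of complexes I to V were 0.018 to 0.053, 0.0071 to 0.085, 0.060 to 0.121, 0.062 to 0.143 and -0.0070 to 0.036. The causes were not tested. The median of the 7 mitochondrial mRNAs was 0.19 to 0.38 over all alternatives.

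Replicate numbers did not pair the libraries: same-numbered libraries had correlations of -0.04, -0.00 and -0.06 between their deviations from the group means. With the number as a block the nuclear members called higher were 4 and the mitochondrial ones 2.

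With 3 libraries a group, the median 95% half-width for nuclear members was 0.18 on the log2 scale. Depth did not limit the abundant mitochondrial mRNAs, but 5 of the 13, with at least 98.0% of windows shared with copies, had no reads, and neither had mt-Atp8, beyond 2 in WT 3, with no annotated copy.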
